A study of Mus musculus with 26 samples.

Results

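Bone morphogenetic proteins (BMPs) are secreted ligands of the TGF-β family, and their messages in differentiating mouse neural stem cells are described here together with those of their receptors and extracellular antagonists. The 10 genes are the ligands *Bmp2*, *Bmp4*, *Bmp6* and *Bmp7*, the type I receptors *Acvr1*, *Bmpr1a* and *Bmpr1b*, the type II receptor *Bmpr2*, and the antagonists *Nog* and *Grem1*. They were taken by gene symbol, as every probe set of the array that carries one of these symbols alone, and each gene had 1 probe set, so that 10 of 35556 probe sets, and 10 of 19938 gene symbols, are concerned. A BMP dimer binds type I and type II receptors, and the receptor complex phosphorylates SMAD1, SMAD5 or SMAD9, which enter the nucleus with SMAD4 and switch on target genes such as the *Id* family. Antagonists such as noggin and gremlin bind the ligands outside the cell and keep them from the receptors. In the developing brain, BMP signalling is known to favour the astrocyte fate of neural precursors over the neuronal and oligodendrocyte fates.

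Neurospheres (NSPs) were grown from the ventricular zone of C57BL/6J embryos at embryonic day 14 and differentiated into astrocytes on poly-L-ornithine in medium with 10% fetal bovine serum, and RNA was measured on 26 Affymetrix arrays. TNF-treated cells received 50 ng/mL TNF, a cytokine that activates NF-κB, from 0 h on, and 3 arrays were made for each of 6, 24 and 48 h and 2 for 72 h. Untreated cells were measured on 3 arrays per time at 0, 6, 24, 48 and 72 h, those of the later times in the same serum medium without TNF, and no altered allele is named for any cells. The series calls its replicates biological, the arrays at 0 h are the untreated start of the course, and the change of medium at 0 h and the time since then cannot be told apart. In bulk RNA, fewer cells of a type and less RNA per cell cannot be told apart either. Within its work on NF-κB in astrocyte differentiation, the study also asked whether TNF acts on the BMP pathway while astrocytes form.

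The deposited values are log2 signals, on which a difference of 1 is a doubling. Probe sets differ in brightness, so levels are compared between conditions for 1 probe set and never between genes. A limma fit over all probe sets gave each difference with its standard error (SE), and passing the test means a q-value, computed over all 35556 probe sets, under 0.05. The astrocyte marker *Gfap* had a mean log2 signal of 12.66 in TNF-treated and 13.54 in untreated cells at 72 h, and of 9.002 in untreated cells at 0 h. The mean over 8 astrocyte markers was between 11.64 and 11.78 in the TNF-treated arrays and between 12.10 and 12.35 in the untreated arrays of 72 h, and between 10.91 and 11.65 at 0 h. In untreated cells at 72 h against 0 h, 3 of the 8 passed as higher and 0 lower, beside 22.8% of all probe sets. The 3 were *Gfap* (4.54), *Aqp4* (2.21) and *Gja1* (0.81), and the others lay between −0.41 for *Aldh1l1* and 0.31 for *Aldoc*. The median change of the 8 was 0.21. With TNF, 0 of the 8 passed at 72 h, beside 1.15% of all probe sets, and their median change was −0.50. The 6 markers of microglia averaged 6.14 to 6.65 in the 26 arrays and the 5 endothelial markers 6.64 to 7.22. Of 6 mural, fibroblast and meningeal markers, *Acta2*, a smooth muscle actin that many cultured cells also make, had mean signals in untreated cells of 12.73 at 6 h and 8.40 at 0 h. It was the 1 marker of this list that passed at 6 h, and the median change of the 6 was 0.036. The mean over 6 markers of the oligodendrocyte lineage lay between 8.91 and 9.35 in the untreated arrays of 72 h and between 9.72 and 10.15 in those of 0 h. Of these, 3 passed as lower at 72 h against 0 h, beside 22.8% of all probe sets. They were *Cspg4* (−2.01), *Olig2* (−1.49) and *Olig1* (−1.03), and the others lay between −0.19 for *Sox10* and −0.15 for *Pdgfra*. In the same comparison, 2 of 5 stem and progenitor markers passed as higher and 1 as lower. Among 6 neuron markers 1 passed as higher and 1 as lower. The part of the marker levels in the results on BMP genes was not tested.

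The second arrays of 0 and 6 h stood apart for *Bmp7*, those of 6 h also for *Bmp2*, and that of 0 h for *Bmpr1b*. *Bmp7* had log2 signals of 10.03 in the second TNF-treated array of 6 h and 9.74 in the second untreated array of 6 h, where the other arrays of these groups lay between 8.02 and 8.29. At 0 h the second array gave 11.28 and the other arrays 9.87 and 10.10. The calls of *Bmp2*, *Bmp7*, *Acvr1*, *Bmpr1a*, *Nog* and *Grem1* that rest on these times are therefore also described without these second arrays. The choice to leave out the second arrays of 0 and 6 h was made after the values were seen. Other results that rest on these times are not all given in this setting.

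**Figure D1:**
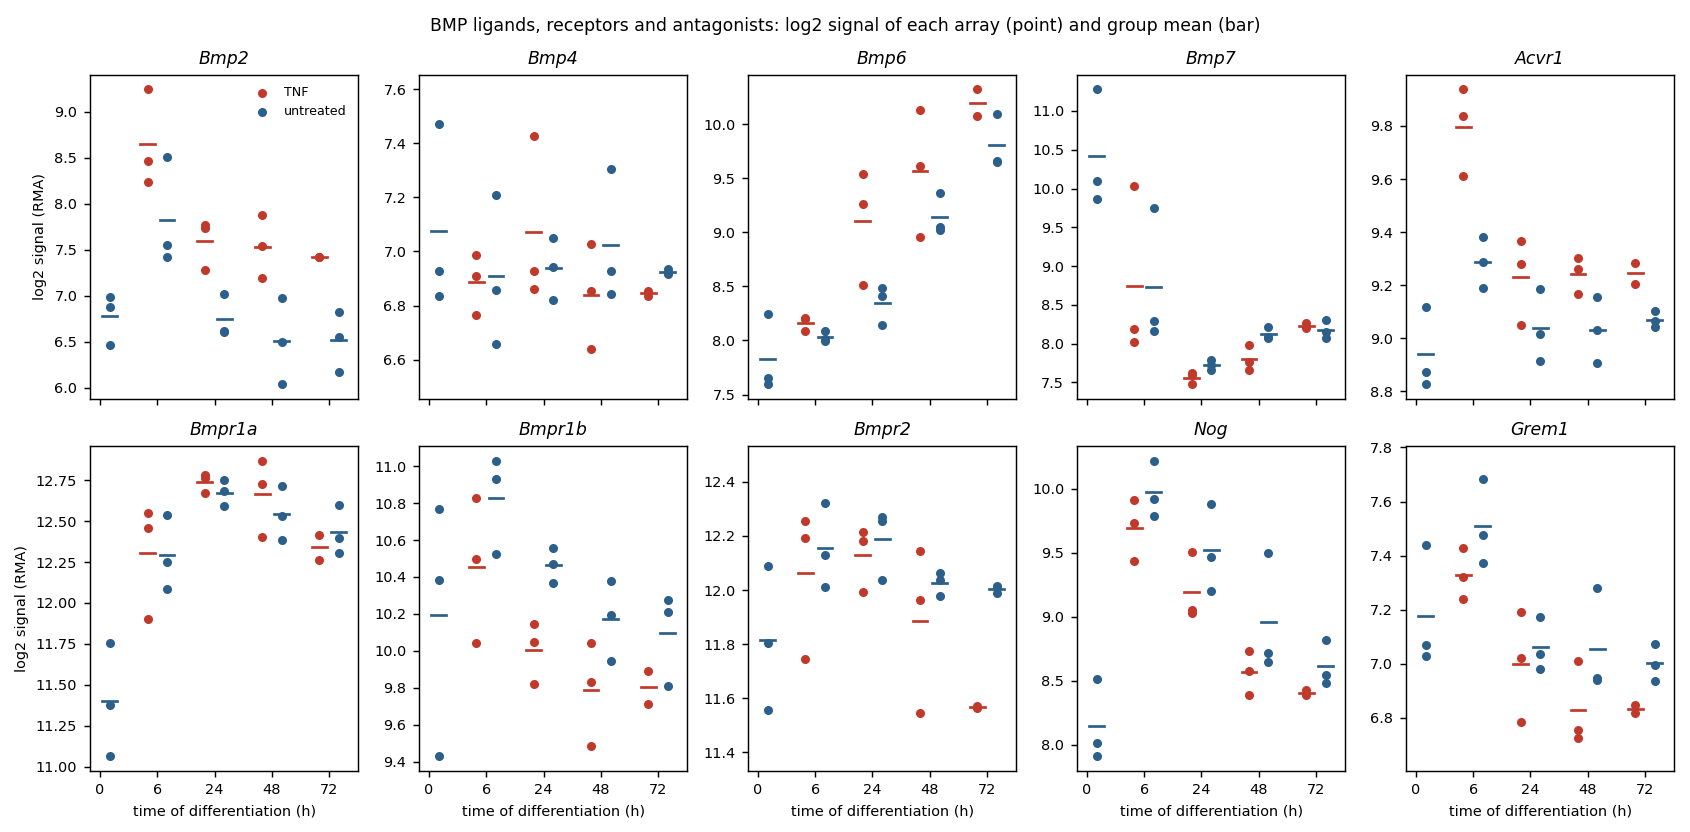
Log2 signal (RMA) of each array (points) and group mean (bars) of the 10 genes against the time of differentiation in hours (times evenly spaced, each panel with its own axis that does not start at 0), with TNF-treated cells in red to the left of untreated cells in blue. The untreated arrays of *Bmp6* climb to between 9.65 and 10.10 at 72 h, those of *Bmp7* lie highest at 0 h, and the TNF-treated arrays of *Bmp2* lie above the untreated ones at 24, 48 and 72 h.

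During differentiation without TNF, the ligand and antagonist genes moved in different directions. *Bmp7* fell at every later time, *Bmp6* rose late, *Bmp2* and the antagonist *Nog* rose early, and the receptor *Bmpr1a* rose and stayed high. Of the 10 genes, 4 rose and 1 fell after 6 h against 0 h, 2 rose and 1 fell after 24 h, 3 rose and 1 fell after 48 h, and 2 rose and 1 fell after 72 h. Over all probe sets, 7.67, 16.5, 16 and 22.8% passed the test at 6, 24, 48 and 72 h. With 10 genes, the 3 called at 24 h and the 3 at 72 h lie near these shares. The median of the 10 changes was 0.34, 0.18, 0.034 and 0.018 beside −0.021, −0.050, −0.037 and −0.055 for all probe sets. Without the second arrays of 0 and 6 h, 4, 3, 4 and 4 genes passed, beside 10.7, 21.4, 19 and 27.4% of all probe sets. These 4 comparisons share the 0 h arrays.

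*Bmp7* (probe set 10490129, chromosome 2 of GRCm38.p6, 172868012 to 172940321) encodes a ligand that signals mainly through ACVR1 and BMPR1A or BMPR1B. Its log2 signals in untreated cells were 9.87, 11.28 and 10.10 at 0 h, 8.17, 9.74 and 8.29 after 6 h, 7.72, 7.66 and 7.79 after 24 h, 8.08, 8.21 and 8.09 after 48 h, and 8.07, 8.30 and 8.14 after 72 h. Every later array lay below every array of 0 h. The log2 change against 0 h was −1.68 after 6 h (SE 0.42, q = 0.0128), −2.69 after 24 h (SE 0.42, q = 9.64e-05), −2.29 after 48 h (q = 0.000478) and −2.24 after 72 h (q = 0.000335, limma, n = 3 each). The fall to 0.155 times the 0 h signal at 24 h was the largest change of any of the 10 genes in either direction. Without the second arrays of 0 and 6 h the changes were −1.76, −2.26, −1.86 and −1.81, and all 4 passed. The call at 6 h was lost without the first (−1.40, q = 0.0614) or the third (−1.46, q = 0.0901) untreated array of that time, and in a fit to only the arrays compared (q = 0.241).

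*Bmp6* (probe set 10404686, chromosome 13, 38345716 to 38500314) encodes a ligand of the same subgroup as BMP7, best known for its part in iron balance through the liver hormone hepcidin. Its log2 signals in untreated cells were 8.24, 7.59 and 7.65 at 0 h, 8.09, 8.01 and 7.998 after 6 h, 8.14, 8.48 and 8.41 after 24 h, 9.02, 9.36 and 9.05 after 48 h, and 9.65, 9.66 and 10.10 after 72 h. The arrays of 6 and 24 h overlapped with those of 0 h, and those of 48 and 72 h lay above all earlier arrays. *Bmp6* rose by 1.31 after 48 h (SE 0.25, q = 0.000701) and by 1.97 after 72 h (SE 0.25, q = 4.94e-06), which is 3.92-fold. Its values of 0.20 after 6 h (95% confidence interval −0.32 to 0.73, q = 0.596) and 0.51 after 24 h (−0.01 to 1.04, q = 0.102) did not pass. No single step between neighbouring times passed, with 0.80 for 48 h against 24 h (q = 0.497) and 0.66 for 72 h against 48 h (q = 1), although the arrays of both steps were separate.

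*Bmp2* (probe set 10476395, chromosome 2, 133552159 to 133562896) encodes a ligand that binds BMPR1A and BMPR1B with high affinity. In untreated cells its log2 signals were 6.99, 6.47 and 6.88 at 0 h, 7.42, 8.51 and 7.55 after 6 h, 6.61, 7.02 and 6.61 after 24 h, 6.04, 6.50 and 6.98 after 48 h, and 6.17, 6.55 and 6.83 after 72 h. At 6 h, and at no other time, all arrays stood above those of 0 h. *Bmp2* rose by 1.05 after 6 h (SE 0.30, q = 0.0262), and fell by 1.08 after 24 h against 6 h (SE 0.30, q = 0.0319). Both calls were lost in several settings. With replicate number fitted as a block, the rise after 6 h passed (q = 0.00767), and so did the fall from 6 to 24 h (q = 0.00906). Without the second arrays of 0 and 6 h the change at 6 h was 0.55 (q = 0.213) and the step to 24 h −0.74 (q = 0.0565). The rise did not pass either without the second array of 0 h alone (0.89, q = 0.0639) or that of 6 h alone (0.71, q = 0.186). The step to 24 h was also lost without the second array of 6 h alone (−0.74, q = 0.166) and without the first (−1.01, q = 0.0889), second (−1.21, q = 0.0683) or the third (−1.01, q = 0.124) array of 24 h. In a fit to only the arrays compared, q was 0.223 for the change at 6 h and 0.0671 for the step. The step was lost with cyclic loess (0.0765) and median centring (0.0552), and the change at 6 h under array weights (0.152).

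*Bmp4* (probe set 10419261, chromosome 14, 46383525 to 46390669) encodes a ligand close to BMP2, and its signal was dim, at percentile 36.3 of all probe sets. Its 9 group means spanned only 0.24, from 6.84 in TNF-treated cells at 48 h to 7.08 in untreated cells at 0 h, and the arrays of every pair of neighbours in this order overlapped. It passed in no comparison, with an interval of −0.52 to 0.21 for 72 h against 0 h in untreated cells.

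*Bmpr1a* (probe set 10418927, chromosome 14, 34411061 to 34503336) encodes ALK3, a type I receptor for BMP2 and BMP4. Its log2 signals in untreated cells were 11.75, 11.07 and 11.38 at 0 h, 12.54, 12.09 and 12.25 after 6 h, 12.75, 12.68 and 12.59 after 24 h, 12.53, 12.71 and 12.38 after 48 h, and 12.40, 12.60 and 12.30 after 72 h. All later arrays lay above all arrays of 0 h. *Bmpr1a* rose by 0.89 after 6 h (SE 0.18, q = 0.00211), 1.27 after 24 h (q = 2.38e-05), 1.14 after 48 h (q = 7.47e-05) and 1.03 after 72 h (SE 0.18, q = 0.000125). All 4 calls held without any single array of the groups compared and without the second arrays of 0 and 6 h. The 6 h call was lost in a fit to only the arrays compared (q = 0.145).

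*Acvr1* (probe set 10482824, chromosome 2, 58446438 to 58566828) encodes ALK2, the type I receptor that BMP6 and BMP7 prefer. In untreated cells it had log2 signals of 8.87, 9.12 and 8.83 at 0 h and 9.38, 9.29 and 9.19 at 6 h, and group means between 9.03 and 9.07 from 24 to 72 h. It rose by 0.35 at 6 h (SE 0.11, q = 0.0449), close to the threshold. The call was lost without the first (0.31, q = 0.107) or the third (0.29, q = 0.111) array of 0 h and without the first (0.30, q = 0.128), second (0.35, q = 0.117) or the third (0.40, q = 0.0747) array of 6 h, and it held without the second arrays of 0 and 6 h together (0.44, q = 0.0308). It was lost in 6 of 10 alternatives, namely Benjamini-Hochberg adjustment (q = 0.06), only the arrays compared (0.44), cyclic loess (0.0985), median centring (0.121), an intensity trend (0.0522) and array weights (0.176). It passed when replicate number was fitted as a block (q = 0.0136). Its changes at 24, 48 and 72 h were 0.10, 0.09 and 0.13, with intervals that reach at most 0.36.

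*Bmpr1b* (probe set 10502451, chromosome 3, 141837135 to 142169585), which encodes the type I receptor ALK6, and *Bmpr2* (probe set 10346651, chromosome 1, 59764279 to 59878081), which encodes the type II receptor that pairs with all 3 type I receptors, passed at no time. *Bmpr1b* had means of 10.19 ± 0.69 (SD, n = 3) at 0 h, 10.83 ± 0.27 after 6 h, 10.46 ± 0.10 after 24 h, 10.17 ± 0.22 after 48 h and 10.10 ± 0.25 after 72 h in untreated cells. Its change of 0.63 at 6 h (SE 0.25, q = 0.128) passed when replicate number was fitted as a block (q = 0.00933) and without the first array of 0 h (0.92, q = 0.0251). Across the 10 alternatives this change lay between 0.40 and 0.66. *Bmpr2* had a mean of 12.19 after 24 h and 11.82 at 0 h, and the change of 0.37 had q = 0.0626 with overlapping arrays, and passed without the first array of 0 h (0.51, q = 0.0264).

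*Nog* (probe set 10389752, chromosome 11, 89300638 to 89302559) encodes noggin, which binds BMP2, BMP4 and BMP7. In untreated cells it had log2 signals of 8.51, 7.92 and 8.02 at 0 h, 10.22, 9.92 and 9.79 after 6 h, 9.46, 9.88 and 9.20 after 24 h, 8.72, 9.50 and 8.65 after 48 h, and 8.49, 8.82 and 8.54 after 72 h. The arrays were highest at 6 h, and those of 72 h again overlapped with 0 h. *Nog* rose by 1.83 after 6 h (SE 0.22, q = 1.07e-05), 3.55-fold, by 1.37 after 24 h (q = 0.000123) and by 0.81 after 48 h (q = 0.0105). Its value at 72 h was 0.47 (0.01 to 0.92, q = 0.0783), which passed when replicate number was fitted as a block (q = 0.0284) and without the first array of 0 h (0.65, q = 0.0367). The call at 48 h was lost without the second untreated array of that time (0.54, q = 0.106) and in a fit to only the arrays compared (q = 0.162). Without the second arrays of 0 and 6 h the changes up to 48 h were 1.74, 1.25 and 0.69, and all 3 passed.

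*Grem1* (probe set 10485948, chromosome 2, 113748675 to 113758648) encodes gremlin, an antagonist of BMP2, BMP4 and BMP7, and was dim, at percentile 39.3. Its untreated arrays had 7.48, 7.69 and 7.37 after 6 h, against 7.17, 6.98 and 7.03 after 24 h and 7.44, 7.07 and 7.03 at 0 h. *Grem1* fell by 0.45 after 24 h against 6 h (SE 0.13, q = 0.0414), and its change of 0.33 after 6 h against 0 h (q = 0.112) passed when replicate number was fitted as a block (q = 0.021) and without the first array of 0 h (0.46, q = 0.0286). The fall passed with this block (q = 0.00451), and was lost without the second arrays of 0 and 6 h (−0.36, q = 0.0969). It was also lost without the first (−0.47, q = 0.104) or second (−0.36, q = 0.16) array of 6 h and without the second (−0.41, q = 0.225) or the third (−0.43, q = 0.134) array of 24 h. Other settings in which it was lost were Benjamini-Hochberg adjustment (q = 0.0541), only the arrays compared (0.0674) and median centring (0.0586).

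Between neighbouring times in untreated cells, *Bmp2* and *Grem1* were thus the 2 genes called for 24 h against 6 h, where 5.02% of all probe sets passed. Of the 10 genes, 0 passed for 48 h against 24 h, where 0.121% of all probe sets did, and 0 for 72 h against 48 h, where 0.00844% did. In limma, 2 and 1 of them had an unadjusted p under 0.05 in these last comparisons, namely *Bmp6* and *Nog* for 48 h against 24 h and *Bmp6* for 72 h against 48 h.

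**Figure D2:**
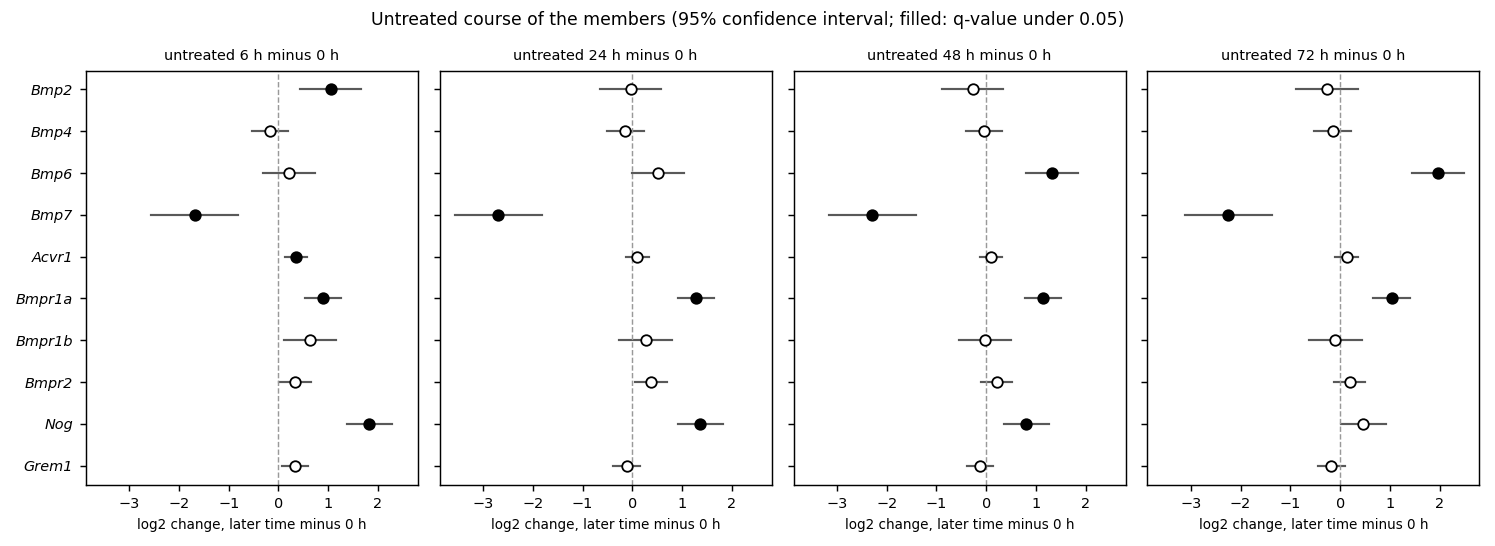
Log2 change of the 10 genes in untreated cells at 6, 24, 48 and 72 h minus 0 h (points) with 95% confidence intervals, filled where the q-value is under 0.05. *Bmp7* is filled on the left of 0 in all 4 panels and *Bmpr1a* on the right in all 4, while *Nog* is filled up to 48 h and *Bmp6* at 48 and 72 h.

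The promoters of 3 of the called genes are shown so that their base composition and short motifs can be read beside these changes. They are the 250 bases before the start of transcription, from RefSeq on GRCm38.p6 and written 5′ to 3′ on the strand of the gene. The table used here has promoters for 7 of the 10 genes, without *Bmp2*, *Bmp7* and *Nog*. Capitals mark the letters GGCGCC, a GC-rich element that BMP-activated SMAD proteins can bind. *Bmp6* lies at chr13:38345466-38345715 on the plus strand, *Acvr1* at chr2:58566829-58567078 and *Bmpr1a* at chr14:34502547-34502796, both on the minus strand. The *Bmpr1a* stretch lies inside the gene span given above, so it precedes an internal start and not the outermost one.
Bmp6: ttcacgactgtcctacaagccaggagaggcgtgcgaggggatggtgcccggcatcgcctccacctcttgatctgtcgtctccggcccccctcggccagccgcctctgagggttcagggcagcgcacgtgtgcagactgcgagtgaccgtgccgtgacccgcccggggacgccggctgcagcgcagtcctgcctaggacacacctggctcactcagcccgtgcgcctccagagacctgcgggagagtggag
Acvr1: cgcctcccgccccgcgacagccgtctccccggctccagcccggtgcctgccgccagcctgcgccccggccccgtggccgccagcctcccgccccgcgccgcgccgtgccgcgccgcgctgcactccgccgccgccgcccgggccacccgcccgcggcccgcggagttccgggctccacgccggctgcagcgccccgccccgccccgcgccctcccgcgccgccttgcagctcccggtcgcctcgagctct
Bmpr1a: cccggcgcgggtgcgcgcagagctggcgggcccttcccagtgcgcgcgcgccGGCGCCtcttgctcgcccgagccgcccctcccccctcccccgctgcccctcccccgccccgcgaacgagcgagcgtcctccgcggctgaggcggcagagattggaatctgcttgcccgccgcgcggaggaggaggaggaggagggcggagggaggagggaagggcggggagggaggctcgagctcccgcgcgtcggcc
These promoters are rich in G and C, with 68.8% for *Bmp6*, 85.6% for *Acvr1* and 78.8% for *Bmpr1a*, beside a median of 52.4% over 32851 promoters. Of the 3 sequences, that of *Bmpr1a* holds GGCGCC, 198 bases before the start, and so do the promoters of *Bmpr2* (105 bases) and *Grem1* (78 bases), while 9.59% of all promoters hold it on either strand. The κB consensus decamer, read on both strands, is in none of the 7 genes' promoters and in 0.14% of all. A looser κB pattern that contains the consensus is in that of *Bmp4* and at the first of 3 starts of *Bmpr1b*, and in 4.11% of all promoters. All 3 of these starts lie inside the span of *Bmpr1b* given above. The E-box CACGTG is in those of *Bmp4* and *Bmp6* and in 6.02% of all, and the STAT motif TTCNNNGAA is in none of the 7 and in 7.02% of all. The short SMAD motif GTCT, on either strand, is in 82.9% of all promoters. A match is a description of these letters only.

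Fewer BMP genes passed the test with TNF than in untreated cells against 0 h, and a smaller share of all probe sets passed as well. With TNF, the receptor gene *Acvr1* rose at 6 h, and none of the 10 genes passed the test at 24, 48 or 72 h. Thus 1, 0, 0 and 0 genes were called at the 4 times, where 0.326, 0.863, 1.04 and 1.15% of all probe sets were. With 10 genes, the counts of 0 lie near these shares. In limma 2, 2, 1 and 2 genes had an unadjusted p under 0.05, which were *Acvr1* and *Bmp2* after 6 h, *Bmp2* and *Bmp6* after 24 h, *Bmp2* after 48 h, and *Bmp2* and *Bmpr2* after 72 h. The median change of the 10 genes was −0.0051, 0.0027, −0.16 and −0.087, beside −0.037, 0.010, −0.024 and −0.020 for all probe sets. The arrays of TNF-treated and untreated cells did not overlap for 1 of the 10 genes after 6 h, 4 after 24 h, 3 after 48 h and 6 after 72 h, and for 8.55, 14.2, 12.2 and 41% of all probe sets. At 72 h, 2 arrays were set against 3.

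*Acvr1* had log2 signals of 9.94, 9.84 and 9.61 in TNF-treated cells after 6 h, against 9.38, 9.29 and 9.19 in untreated cells after 6 h. Every TNF-treated array lay above every untreated one. The difference was 0.51 (SE 0.11, 1.42-fold, q = 0.0425, limma, n = 3 each), and same-numbered arrays differed by 0.56, 0.55 and 0.42. The call was lost without the first (0.44, q = 0.259) or second (0.49, q = 0.198) TNF-treated array and without the first (0.56, q = 0.0688), second (0.51, q = 0.101) or the third (0.46, q = 0.301) untreated array. Without the second arrays of 0 and 6 h it had q = 0.203 (0.49), and it was also lost in a fit to only the arrays compared (q = 0.834), with median centring (0.0675) and with an intensity trend (0.0533). It passed when replicate number was fitted as a block (q = 0.00892). At later times the signals were 9.05, 9.37 and 9.28 with TNF against 8.91, 9.19 and 9.01 without after 24 h, 9.17, 9.30 and 9.26 against 8.91, 9.16 and 9.03 after 48 h, and 9.21 and 9.28 against 9.10, 9.04 and 9.07 after 72 h. Those differences were 0.19, 0.21 and 0.17, with q = 1, 0.724 and 0.768.

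*Bmp2* had the largest TNF differences of the 10 genes at all 4 times, none of which passed the test. Its log2 signals were 8.46, 9.24 and 8.23 in TNF-treated cells against 7.42, 8.51 and 7.55 in untreated cells after 6 h, and 7.28, 7.77 and 7.74 against 6.61, 7.02 and 6.61 after 24 h. They were 7.19, 7.87 and 7.54 with TNF against 6.04, 6.50 and 6.98 without after 48 h, and 7.42 and 7.42 with TNF against 6.17, 6.55 and 6.83 without after 72 h. The groups overlapped at 6 h, and at 24, 48 and 72 h every TNF-treated array lay above every untreated array. Same-numbered arrays of 6 h differed by 1.04, 0.74 and 0.68, so the overlap at that time is between arrays of different number. The differences were 0.82 after 6 h (95% confidence interval 0.20 to 1.44, q = 0.671), 0.85 after 24 h (0.23 to 1.47, q = 0.391), 1.03 after 48 h (0.41 to 1.65, q = 0.134) and 0.91 after 72 h (0.22 to 1.60, q = 0.267). The intervals, which are not adjusted for the number of probe sets, leave out 0. Without the second arrays of 0 and 6 h the difference of 1.03 at 48 h passed (q = 0.0144). The order of the 9 group means ran from TNF-treated and untreated cells of 6 h (8.65 and 7.83) through TNF-treated cells of 24, 48 and 72 h (7.60, 7.53 and 7.42) to the untreated cells of 0, 24, 72 and 48 h (6.78, 6.75, 6.52 and 6.51). Only the neighbours TNF at 72 h and untreated at 0 h did not overlap.

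*Bmp6* had log2 signals of 8.51, 9.54 and 9.27 in TNF-treated cells and 8.14, 8.48 and 8.41 in untreated cells at 24 h, groups that did not overlap. The difference of 0.76 (0.24 to 1.29, q = 0.313) did not pass. At 48 h the arrays had 8.96, 10.13 and 9.61 with TNF and 9.02, 9.36 and 9.05 without, and at 72 h 10.07 and 10.32 with TNF and 9.65, 9.66 and 10.10 without. These groups overlapped, with differences of 0.42 (−0.10 to 0.94) and 0.40 (−0.19 to 0.98), and at 6 h the difference was 0.13 (−0.39 to 0.65). *Bmp7* differed by 0.01, −0.16, −0.32 and 0.06 at 6, 24, 48 and 72 h, with q of 0.826 or more. Its interval at 6 h ran from −0.87 to 0.89, while same-numbered arrays differed by −0.15, 0.29 and −0.10. *Bmp4* differed by −0.19 to 0.14, with intervals within −0.55 and 0.50.

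Among the other receptors, *Bmpr2* at 72 h had 11.57 and 11.57 in TNF-treated cells against 12.02, 12.01 and 11.99 in untreated cells. The groups did not overlap, and the difference of −0.44 (−0.79 to −0.08) had q = 0.325 in the fit, whose estimate of the spread comes from all groups, and q = 0.0205 in a fit to the 5 arrays compared alone. *Bmpr2* differed by −0.09, −0.06 and −0.14 at 6, 24 and 48 h, with overlapping arrays. *Bmpr1b* was −0.37, −0.46, −0.38 and −0.29 at 6, 24, 48 and 72 h, with q of 0.801 or more. At 24 h its arrays were separate, with 10.05, 9.82 and 10.15 in TNF-treated cells and 10.47, 10.37 and 10.56 in untreated cells. *Bmpr1a*, which had risen with differentiation, differed by 0.01, 0.06, 0.12 and −0.09 with TNF, with intervals within −0.50 and 0.49.

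For the antagonists, *Nog* differed by −0.28, −0.32, −0.39 and −0.21 from 6 to 72 h and *Grem1* by −0.18, −0.06, −0.22 and −0.17, and none of these values passed the test. The intervals of *Nog* ran from −0.84 to 0.07 after 48 h and from −0.72 to 0.30 after 72 h, and those of *Grem1* from −0.49 to 0.04 and from −0.47 to 0.13. At 72 h the TNF-treated arrays of *Nog* (8.39 and 8.43) lay just below the untreated arrays (8.49, 8.82 and 8.54). No TNF difference of the 10 genes at 24, 48 or 72 h differed from that at 6 h by limma's test of the difference itself, where 0.0253, 0.104 and 0.124% of all probe sets passed, and 0 of the 10 genes had an unadjusted p under 0.05. For *Acvr1* the TNF difference after 72 h minus that after 6 h was −0.33 (SE 0.16, q = 1) in this fit. With replicate number fitted as a block, the *Acvr1* differences at 24, 48 and 72 h were each below that at 6 h. Their unadjusted p in limma was 0.0304, 0.0397 and 0.0221, and none passed, with q of 0.781 or more.

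**Figure D3:**
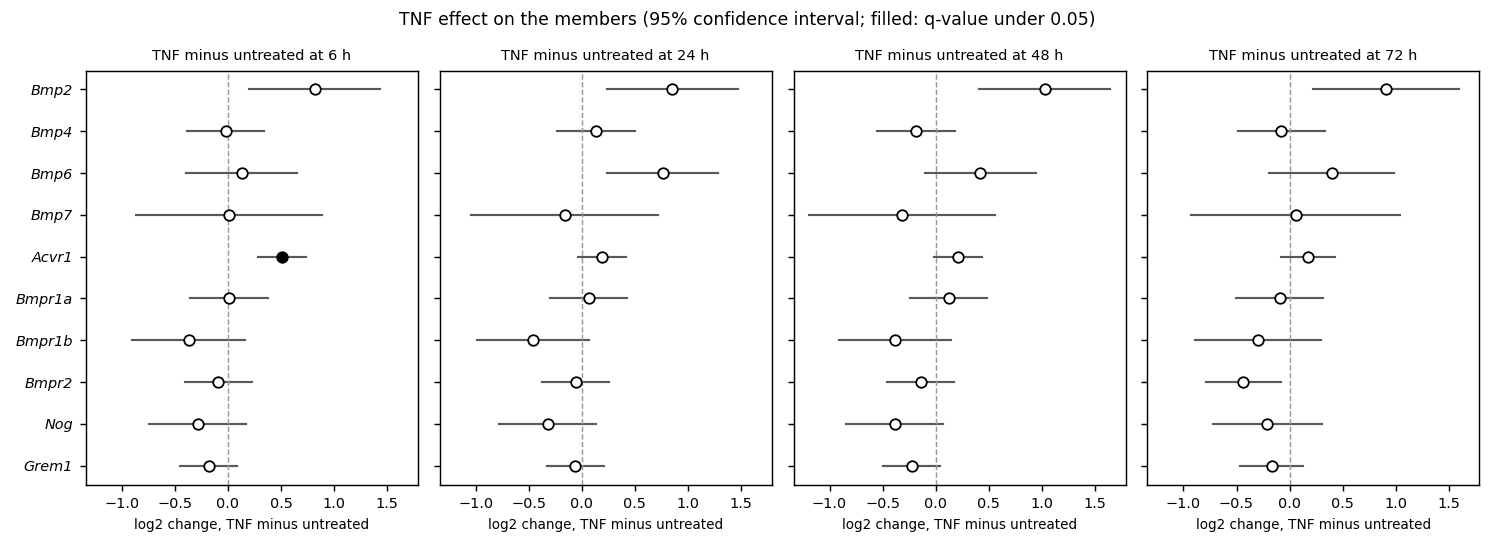
Log2 change of the 10 genes with TNF minus untreated at 6, 24, 48 and 72 h (points) with 95% confidence intervals, filled where the q-value is under 0.05. *Acvr1* at 6 h (0.51) is the only filled point, and the points of *Bmp2* lie between 0.82 and 1.03 in all 4 panels.

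The rest of the pathway was read from a list of 63 further genes, of which 62 were measured. In untreated cells 11 of them rose and 4 fell after 6 h, 12 and 7 after 24 h, 13 and 3 after 48 h, and 15 and 6 after 72 h. These are 24.2, 30.6, 25.8 and 33.9% of the 62 genes, beside 7.67, 16.5, 16 and 22.8% of all probe sets. Among 11 target genes, 4, 6, 6 and 6 rose and 0 fell at these times, and they were *Id1*, *Id2*, *Id3*, *Id4*, *Hey1* and *Atoh8*, with *Id4* and *Atoh8* from 24 h on. The targets called are 36.4, 54.5, 54.5 and 54.5% of the 11. Their median change was 0.76, 0.87, 0.66 and 0.63, beside −0.021, −0.050, −0.037 and −0.055 for all probe sets. *Id1*, an inhibitor of basic helix-loop-helix factors, had log2 signals of 11.41, 11.04 and 11.28 after 6 h and of 9.69, 9.01 and 9.42 at 0 h in untreated cells, and rose by 1.87 after 6 h (SE 0.15, q = 8.68e-08) and 1.35 after 72 h (q = 1.28e-06). *Id4*, of the same family, rose by 1.53 at 72 h (SE 0.40, q = 0.00524), and by 0.77 without the second array of 0 h, which had 8.32 where the other arrays had 10.69 and 10.54. Its call at 72 h was lost in a fit to only the arrays compared (q = 0.113). *Atoh8*, a basic helix-loop-helix factor, rose by 1.62 at 72 h (SE 0.32, q = 0.000541).

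Among 10 SMAD proteins and their regulators, *Smad9*, a receptor-regulated SMAD of the BMP branch, rose by 1.67 at 72 h (SE 0.22, q = 6.41e-06). The inhibitory *Smad6* rose by 1.08 (SE 0.25, q = 0.00197), and *Smad5*, another SMAD of the BMP branch, fell by 0.29 (SE 0.11, q = 0.0323). Of the further antagonists and modulators, *Nbl1*, which encodes an antagonist of the DAN family, rose by 2.08 (SE 0.23, q = 8.94e-07) at 72 h, *Crim1*, a membrane protein that binds BMPs, by 1.51 (q = 3.67e-06), and *Fstl1*, a follistatin-like protein, by 1.47 (SE 0.41, q = 0.00825). Of the further ligands, *Gdf11* rose by 1.32 (SE 0.09, q = 1.4e-09), while *Inhbb*, an activin subunit, fell by 0.66 (q = 0.00164) and *Bmp3* by 0.61 (q = 0.00252). Of the further receptors, the TGF-β receptor *Tgfbr2* rose by 0.58 (q = 0.0282), and the activin receptor *Acvr2b* fell by 0.50 (q = 0.0172) and the co-receptor *Eng* by 0.31 (q = 0.0338). The calls of *Smad5* were lost without the second array of 0 h (−0.22) and the second (−0.22) or the third (−0.29) of 72 h, and that of *Fstl1* without the second of 72 h (1.04). Those of *Tgfbr2* and *Acvr2b* were lost without the first array of 0 h (0.47 and −0.33) and without the second of 72 h (0.48 and −0.42), and *Tgfbr2* also without the third of 0 h (0.47). *Eng* lost its call without the first (−0.19) or second (−0.32) array of 0 h and without the first (−0.28), second (−0.34) or the third (−0.31) of 72 h. *Bmp3* kept its call without any single array, with −0.39 without the first of 0 h. In fits to only the arrays compared, *Bmp3* (q = 0.105), *Tgfbr2* (0.0967), *Acvr2b* (0.112), *Eng* (0.166) and *Smad5* (0.158) did not pass at 72 h, and under array weights the last 4 of these and *Fstl1* (0.108) did not.

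With TNF, 0 of the 62 genes passed at 6 and 24 h, where 3 and 8 had an unadjusted p under 0.05 in limma, 2 rose after 48 h and 2 after 72 h, and 0 fell. The 2 genes are 3.23% of the 62, beside 1.04 and 1.15% of all probe sets at these times. An unadjusted p under 0.05 was found for 1768 and 1999 of 35556 probe sets at 6 and 24 h. The genes called were *Smad3* and *Smurf1* after 48 h and *Smad3* and *Tgfbr3* after 72 h, and none of the 11 targets was among them. *Smad3*, a SMAD of the TGF-β and activin branch, had log2 signals of 10.40, 10.88 and 10.48 in TNF-treated cells against 9.66, 9.95 and 9.62 in untreated cells after 48 h, and 10.69 and 10.57 against 9.77, 10.08 and 9.55 after 72 h. It rose by 0.84 after 48 h (SE 0.18, q = 0.0191) and 0.82 after 72 h (SE 0.20, q = 0.0486). The 48 h call was lost without the first (0.80) or the third (0.78) untreated or the second TNF-treated array (0.69), and the 72 h call without the first (0.81) or the third (0.70) untreated or the first (0.76) or second (0.88) TNF-treated array. *Smurf1*, a ubiquitin ligase that marks SMAD1 and SMAD5 for degradation, rose by 0.55 at 48 h (SE 0.13, q = 0.0456), a call lost without the first (0.49) or the third (0.54) untreated or the second (0.45) or the third (0.58) TNF-treated array. Its differences at 6, 24 and 72 h were 0.53, 0.56 and 0.61, with q = 0.143, 0.0523 and 0.0503. *Tgfbr3*, the co-receptor betaglycan, rose by 0.55 at 72 h (SE 0.12, q = 0.0259), a call lost without the first (0.51) or the third (0.54) untreated or the first (0.62) or second (0.48) TNF-treated array. In a fit to only the arrays compared, *Smad3* (q = 0.0887) and *Smurf1* (0.19) did not pass at 48 h. With median centring, *Smurf1* at 48 h (0.0558) and *Smad3* at 72 h (0.0587) did not. *Smurf1* also did not pass with Benjamini-Hochberg adjustment (0.0513), nor *Tgfbr3* with the replicate block when the second TNF-treated array of 72 h was left out (0.0969). *Id1* differed by 0.32, 0.08, 0.14 and 0.33 at 6, 24, 48 and 72 h (q of 0.572 or more), and at 48 h its interval was −0.18 to 0.46. *Id4* differed by −0.66, −0.99, −0.68 and −0.52, with q of 0.636 or more, and *Smad9* by −0.33, −0.48, −0.59 and −0.66, with q of 0.272 or more.

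**Figure D4:**
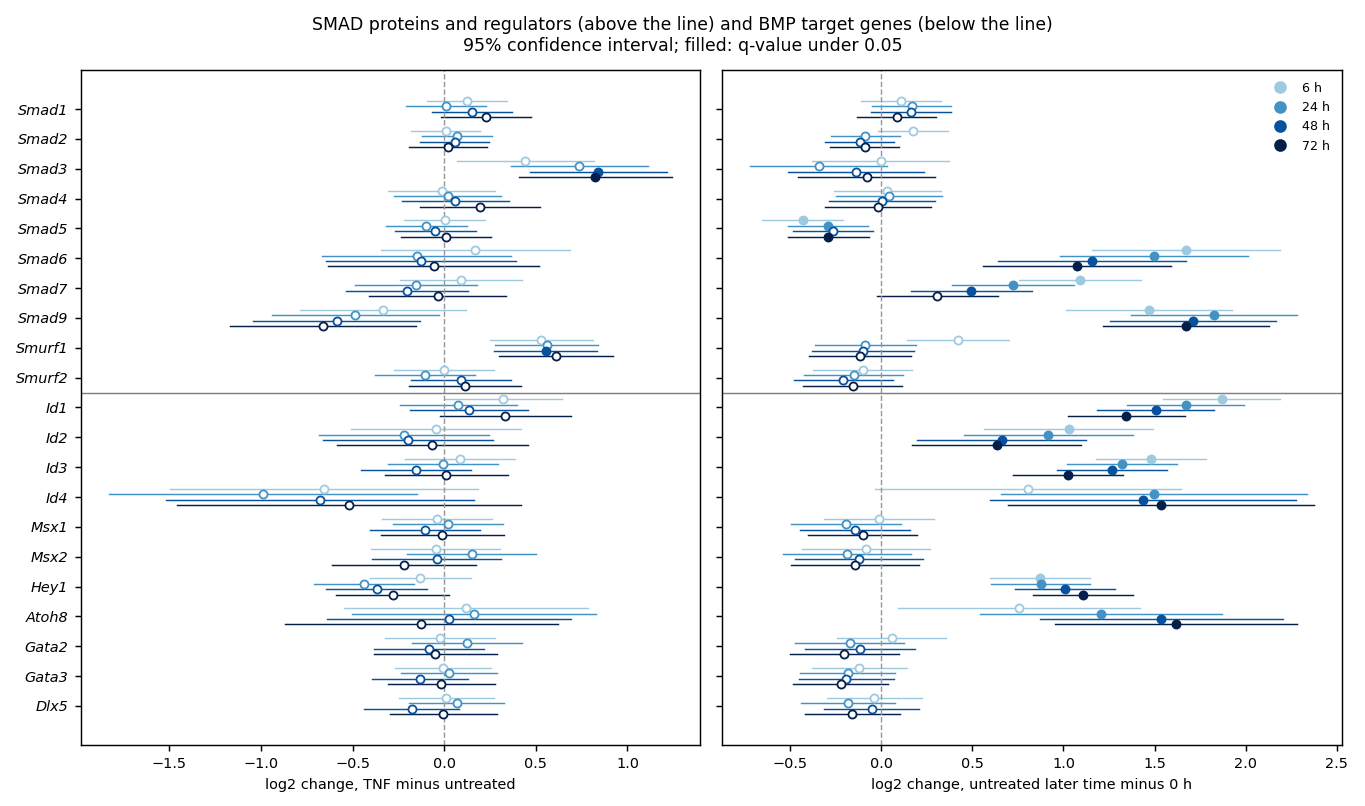
Log2 change with 95% confidence intervals of 10 SMAD proteins and regulators and 11 BMP target genes, with TNF minus untreated on the left and untreated later times minus 0 h on the right, shaded from 6 h (light) to 72 h (dark) and filled where the q-value is under 0.05. On the left only *Smad3* at 48 and 72 h and *Smurf1* at 48 h are filled, and on the right *Id1*, *Id2*, *Id3* and *Hey1* are filled at all 4 times.

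Across conditions, the order of the group means was rarely sharp. Of the 8 pairs of neighbours in the order of 9 group means, all 8 overlapped for *Bmp4*, *Bmpr1b*, *Bmpr2*, *Nog* and *Grem1*, 7 for *Bmp2*, *Bmp6*, *Acvr1* and *Bmpr1a*, and 6 for *Bmp7*. For the 6 genes whose means spanned at least 1, the most alike probe sets over the 9 group means were sought among 2485 with a single gene symbol, a mean above the median of all probe sets and a span of at least 1. For *Bmp2* they were *Smurf1* (Pearson's r = 0.976), *Rprm* (0.975) and *Zdhhc18* (0.975), for *Bmp6* *Slco1a5* (0.981), *Serping1* (0.978) and *Igfbpl1* (0.978), and for *Bmp7* *Plpp4* (0.991), *Cbs* (0.982) and *Lrrtm3* (0.977). For *Bmpr1a* they were *Akap6* (0.974), *Ly96* (0.971) and *Ano3* (0.966), for *Bmpr1b* *Cacna2d1* (0.937), *Omg* (0.937) and *B3galt2* (0.930), and for *Nog* *Mgat4a* (0.989), *Kif26b* (0.986) and *Mef2c* (0.980). These correlations describe 9 group means that share arrays, normalization and the same course of differentiation, and they were the highest of many.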

How the data were processed

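RNA of 26 cultures was hybridised to Affymetrix MoGene 1.0 ST arrays, and the deposited values are log2 signals that the authors made with RMA in the oligo package under R 3.3.1, where the sources used here give no version for either oligo or RMA. Background correction and quantile normalization within RMA make array medians nearly equal (7.54 to 7.76), so that a shift of all RNA would not be seen, and the number of arrays limits the precision. Gene names came from the platform annotation, where 21789 of 35556 probe sets have 1 symbol, 1621 several and 12146 none. Correlations between arrays were 0.947 to 0.996 and 0 pairs were identical.

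Group means of the 9 groups were fitted to all arrays and probe sets with limma 3.58.1 (R 4.3.3), 14 contrasts were tested, and p-values were turned into Storey q-values over all probe sets of a contrast with a threshold of 0.05. The q-value stands in for the adjusted p throughout, and 95% confidence intervals use the moderated variance with 20.24 degrees of freedom. The fit was tested on simulated data. No gene was removed for low signal. The series calls its replicates biological, but the labels do not say whether they came from separate animals. The p-values therefore measure the spread between these cultures, part of which may be technical.

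Same-numbered arrays were compared by the correlation of their deviations from the group means over all probe sets. It was over 0.1 for every pair of TNF-treated and untreated cells at 6 h (0.674, 0.559 and 0.461). In untreated cells it was over 0.1 for every pair of 6, 48 and 72 h against 0 h (lowest 0.14). The same held for 24 h against 6 h (lowest 0.1 after rounding) and 72 h against 48 h (lowest 0.156). It did not hold at the other TNF times, nor for 24 h against 0 h or 48 h against 24 h. Blocked values are therefore given beside the comparisons of the first kind where they change a call, and for the calls of *Acvr1* and *Bmp2* at 6 h.

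Alternatives were Benjamini-Hochberg adjustment, a fit to the arrays compared alone, the replicate block, an intensity trend with robust variances, array weights (gene by gene, since the REML estimate did not converge), cyclic loess, median centring, leaving out dim probe sets (lowest 40%), and leaving out each array. The one without the second arrays of 0 and 6 h was chosen after seeing the data. The 10 genes and all gene lists were chosen with earlier results of these data known. All 10 genes are named in every comparison, together with pathway genes called with TNF and, for each role, the 3 called with the largest change at 72 h against 0 h, and the 3 probe sets most alike for each gene. *Id2*, *Id3* and *Hey1* were named after their values were seen. Promoters came from RefSeq on GRCm38.p6.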

Additional observations from a re-analysis of the deposited data

How the results depend on the processing

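Across 86 values of the BMP genes and their pathway, 765 of 858 alternatives stayed on the same side of the threshold. Of these alternatives, 0 reversed a direction. The 86 values were chosen by their result in the limma fit to all arrays. Those of BMP genes had an unadjusted p under 0.05, and those of pathway genes named for a call passed the test. Values chosen in this way lie away from 0, so a reversal was unlikely from the start. The count of 0 reversals therefore says nothing about the values that were not chosen. Of 512 values refitted with 1 array left out, 431 stayed on the same side. The counts of called BMP genes that moved by over 1.5 times come first. With TNF at 6 h (1 gene) the count was 0 with only the arrays compared, with median centring, with an intensity trend and robust variances and without the second arrays of 0 and 6 h, and 0 to 1 when single arrays were left out. With TNF at 24 h (0) it was 2 under array weights, namely *Bmp2* (q = 0.0098) and *Bmp6* (q = 0.00575), beside 3.54% of all probe sets in that setting. With TNF at 72 h (0) it was 2 with only the arrays compared, namely *Bmp2* (q = 0.0396) and *Bmpr2* (q = 0.0205), and 2 under array weights. In these 2 settings 6.22 and 14.4% of all probe sets passed at 72 h. In untreated cells at 6 h against 0 h (5) it was 1 with only the arrays compared (0.655% of all probe sets), 3 under array weights (4.7%) and 3 to 6 when single arrays were left out, which gave 3 to 4 at 24, 48 and 72 h. Smaller moves at 6 h were 7 with the replicate block (13.2% of all probe sets), which adds *Bmpr1b* and *Grem1*, and 4 with Benjamini-Hochberg adjustment, median centring or an intensity trend, each without *Acvr1*. At 24 h *Bmpr2* passed with median centring (q = 0.033) and with dim probe sets left out (0.0381), which gave 4, beside 15.6 and 29.2% of all probe sets. At 48 h *Nog* was lost with only the arrays compared, which gave 3. For 24 h against 6 h (2) it was 1 with Benjamini-Hochberg adjustment, cyclic loess, dim probe sets left out or without the second arrays, 0 with only the arrays compared or median centring, 4 under array weights and 0 to 2 when single arrays were left out. The gene called without the second arrays was *Bmp7* (−0.50, q = 0.00473), while *Bmp2* and *Grem1* were lost. The share of all probe sets in this comparison ran from 3.97 to 16.2%, with the highest under array weights.

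With the replicate number as a block, the count with TNF at 48 h (0) was 1, also when the second TNF-treated array of 72 h was left out, and the gene was *Bmp2* (q = 0.0393). In these fits 1.97 and 2.05% of all probe sets passed. The count at 48 h was 1 without the second arrays of 0 and 6 h too, beside 1.79% of all probe sets. For *Bmpr2* at 24 h against 0 h, q was 0.0626 and the blocked q 0.0266. In neither comparison did all same-numbered arrays correlate over 0.1 in their deviations from the group means. The correlations were 0.309, 0.608 and −0.0238 for TNF at 48 h, and 0.24, 0.312 and −0.0545 for untreated 24 h against 0 h. The cause of these changes was not tested. The share of all probe sets called with TNF moved with the setting as well, from 0.0309 to 2.82% at 6 h, 0.759 to 3.54% at 24 h, 0.56 to 2.05% at 48 h and 1.13 to 14.4% at 72 h, and so did that in untreated cells against 0 h, from 0.655 to 16.3% at 6 h, 5 to 29.7% at 24 h, 3.77 to 30.3% at 48 h and 9.03 to 38.8% at 72 h. Cyclic loess and median centring moved the median of all probe sets by at most 0.055 and 0.070.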
